A study of Mus musculus with 68 samples.

Results

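Levels of 7 nuclear receptor genes, Rora, Nr2f2, Rxra, Vdr, Ppard, Pparg and Rarg, were examined in mouse skin papillomas. They were picked by name, and every array probeset that carries one of these symbols alone was taken: 25 of the 45101 probesets on the array, 19 of which passed a filter on low values and were tested among 21561. Papillomas had been raised on the dorsal back skin of FVBBX mice, made by mating the hybrids of SPRET/Ei and FVB/N parents back to FVB/N, and the mice were 8 to 12 weeks old at the start. All mice had been given 25 µg of the mutagen DMBA 1 time and then the tumour promoter TPA repeatedly for 20 weeks, and no untreated skin was analysed here. The 68 papillomas came from 37 mice, 31 of which gave 2 papillomas and 6 gave 1. By the number of papillomas at 20 weeks the mice fell into 12 susceptible mice with 9 to 35, 6 resistant mice with 0 or 1, and 19 intermediate mice with 2 to 7. Most resistant mice gave 2 papillomas all the same, so some of their papillomas arose after that count. In some resistant mice the first papilloma also came later than in any susceptible mouse. The age of each profiled papilloma is not in the labels used here, and its part in the class differences was not tested. Days from treatment to sacrifice are in the labels for most mice. They vary widely within each class and are missing for some mice of each, and their part was not tested either. Each backcross mouse carries its own mixture of alleles, and the classes were an outcome of the treatment and not a randomised group. The mouse was the replicate throughout, with the mean of its papillomas as its value.

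Nuclear receptors are transcription factors that bind short DNA half-sites, many of them as dimers, and switch target genes when a lipid-soluble ligand occupies them. Rxra encodes the shared dimer partner of the vitamin D receptor (Vdr), the retinoic acid receptor most abundant in epidermis (Rarg) and the fatty acid sensing receptors Ppard and Pparg. Rora binds DNA mainly as a monomer and activates clock genes such as Bmal1, and Nr2f2 (COUP-TFII) is an orphan receptor best known from veins and mesenchyme. In skin, Pparg is known for the differentiation of sebocytes and adipocytes, and Ppard, Vdr and Rarg for the control of keratinocyte growth and differentiation.

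In GRCm38.p6 the genes lie on chromosome 9 (Rora, 68653404 to 69388246), chromosome 7 (Nr2f2, 70351946 to 70366746), chromosome 2 (Rxra, 27676445 to 27763319), chromosome 17 (Ppard, 28232754 to 28301469) and chromosome 6 (Pparg, 115360879 to 115490404). Vdr (97854427 to 97908296) and Rarg (102234938 to 102257522) both lie on chromosome 15. RefSeq promoter entries of that build were found for all 7 genes, 11 in all. The 250 bases before the annotated start are given for Rora and Nr2f2, whose levels carry most of the results, and, as examples, for an Rxra and a Pparg start that hold the AGGTCA half-site known to be bound by this receptor family. The Rora, Rxra and Pparg windows shown lie inside the gene spans above, so their starts are not the first base of those spans. Capitals mark AGGTCA, the GC box GGGCGG or the AP-1 motif TGANTCA on either strand.
Rora, chr9:68653536-68653785, plus strand: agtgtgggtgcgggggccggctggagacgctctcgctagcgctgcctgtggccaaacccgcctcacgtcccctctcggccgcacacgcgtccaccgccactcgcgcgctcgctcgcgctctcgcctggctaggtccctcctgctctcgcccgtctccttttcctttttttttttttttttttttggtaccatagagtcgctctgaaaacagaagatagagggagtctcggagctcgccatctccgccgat
Nr2f2, chr7:70366747-70366996, minus strand: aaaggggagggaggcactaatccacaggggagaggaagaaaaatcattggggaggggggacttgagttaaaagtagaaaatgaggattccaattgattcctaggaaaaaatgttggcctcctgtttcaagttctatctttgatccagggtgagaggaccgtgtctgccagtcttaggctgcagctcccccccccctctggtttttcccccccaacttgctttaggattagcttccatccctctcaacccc
Rxra, second start, chr2:27709042-27709291, plus strand: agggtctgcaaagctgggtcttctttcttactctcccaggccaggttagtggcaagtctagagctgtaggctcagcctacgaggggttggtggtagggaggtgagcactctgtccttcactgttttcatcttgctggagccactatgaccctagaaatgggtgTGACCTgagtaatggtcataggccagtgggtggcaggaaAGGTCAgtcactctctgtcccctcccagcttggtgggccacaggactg
Pparg, second start, chr6:115362099-115362348, plus strand: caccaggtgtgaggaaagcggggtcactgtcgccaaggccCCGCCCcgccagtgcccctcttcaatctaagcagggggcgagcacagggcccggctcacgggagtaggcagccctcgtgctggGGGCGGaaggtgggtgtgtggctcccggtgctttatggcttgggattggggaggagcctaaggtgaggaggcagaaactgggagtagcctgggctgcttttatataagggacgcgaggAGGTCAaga
The Rora and Nr2f2 windows held none of the 3 motifs, which says only that these letters are not in these windows. The second Rxra start had the half-site at 2 places, 81 and 42 bases before the start, and the second Pparg start had it 3 bases before the start. The first Pparg start (22 bases before the start) and the second Rarg start (219 bases) also held it, so 4 of the 11 member windows did. Among all 32851 promoter windows of the same length, 14% held AGGTCA, 32.7% held GGGCGG and 6.75% held TGANTCA, and no member window held the last. The motifs did not overlap in the windows shown.

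Values are log2 intensities normalised by RMA, so a difference of 1 is a 2-fold change, and array medians ran from 5.19 to 5.29. The label of an epidermal tumour was checked against its markers: all 10 genes of the basal keratinocyte list and 15 of the 16 genes of the cornified list (late differentiation genes such as Lor, Flg, Krt1 and Krt10) passed the filter. One papilloma stood apart: papilloma 1 of resistant mouse 32 had a mean cornified level of 5.70, against 8.57 to 11.83 in the other papillomas, and the results that rest most on it are given with and without it. In 6 mice (1 susceptible, 1 resistant and 4 intermediate) the levels of sex-linked genes went against the sex in the labels. Actb signal near its 3′ end over that near its 5′ end, a log2 ratio that tracks RNA quality, was 0.848 ± 0.240 (SD) in 12 susceptible mice and 0.590 ± 0.248 in 6 resistant mice.

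Rora was represented by 9 probesets, all of which passed the filter. Of these, 7 moved together: the r of their mouse means lay between 0.593 and 0.950 over the 21 pairs of probesets, and between 0.62 and 0.980 for the differences between the 2 papillomas of 31 mice. The remaining probesets, 1441085_at and 1458145_at, followed none of the 7, with r from -0.119 to 0.278 over mice, and both lay near the array median. The probesets of 1 gene share their hybridisations, so their agreement is no replication of a difference between mice.

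Rora was lower in papillomas of resistant mice. At 1424034_at, the main Rora probeset, resistant mice had 7.38 at the lowest, 8.61 at the median and 8.91 at the highest. Intermediate mice ran from 8.46 through 9.45 to 10.64, and susceptible mice from 9.04 through 9.52 to 10.33. All 12 susceptible mice and 16 of 19 intermediate mice lay above every resistant mouse, and the intermediate mean of 9.48 ± 0.58 (SD) was close to the susceptible mean of 9.53 ± 0.39, whereas the resistant mean was 8.39 ± 0.55. The difference, susceptible minus resistant, was 1.14 (SE 0.21), or 2.20-fold. Because these are whole tumours, fewer cells that express a gene and less RNA per cell cannot be told apart.

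**Figure D1:**
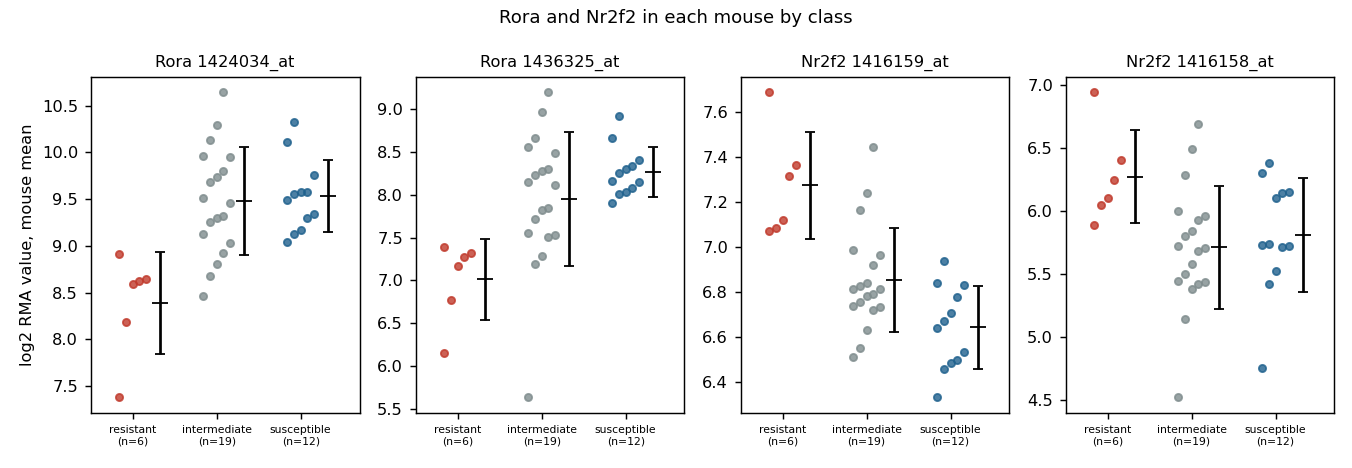
Log2 RMA value (vertical axis) of the main and a second Rora probeset and of both tested Nr2f2 probesets in each mouse, by class (horizontal axis). Each point is a mouse mean and black marks give the class mean with its SD; resistant and susceptible mice do not overlap in the 3 left panels, and overlap for Nr2f2 1416158_at.

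A second probeset, 1436325_at, had resistant mice at 6.15, 7.22 and 7.39 (lowest, median and highest) and susceptible mice at 7.90, 8.21 and 8.93, again without overlap, a difference of 1.26 (SE 0.17). Intermediate mice ran from 5.63 to 9.20 there, so the class between the others held both the lowest and the highest mouse. The other 5 probesets that moved together were also higher in susceptible mice, with overlap, from 0.31 (SE 0.24) at 1458129_at to 1.19 (SE 0.27) at 1420583_a_at. The pair that moved with none of them differed by -0.01 and -0.15.

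Nr2f2 ran the other way. At 1416159_at, its main probeset, resistant mice had 7.07, 7.22 and 7.69, intermediate mice 6.51, 6.81 and 7.45, and susceptible mice 6.33, 6.66 and 6.94 (lowest, median and highest). No susceptible mouse reached the lowest resistant mouse, and the intermediate mice overlapped both classes. The difference was -0.63 (SE 0.10), or 1.55-fold higher in resistant mice. The second tested probeset, 1416158_at, differed by -0.47 (SE 0.20) with overlap, and the 2 probesets correlated at r = 0.493 over 37 mice and 0.772 over pair differences. Over 37 mice, r with the Actb ratio was -0.423 at 1416159_at and 0.026 at 1416158_at. Over the alternatives, control ratios as covariates among them, the difference at 1416159_at ran from -0.66 to -0.52. The other 4 Nr2f2 probesets exceeded the array median in at most 10 of 68 papillomas and were not tested. Of these, 1416160_at tracked 1416158_at (r = 0.782) and differed between the classes by -0.31. Probeset 1436475_at tracked 1416158_at about as closely (r = 0.769) but differed by only -0.02, and had r = 0.139 with 1416159_at.

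The receptors with known ligands differed little between the classes. Rxra 1454773_at, the dimer partner, had medians of 8.45 in resistant, 8.58 in intermediate and 8.62 in susceptible mice, a difference of 0.13 (SE 0.09). Vdr 1418176_at differed by 0.10 (SE 0.11), Ppard 1439797_at by 0.01 (SE 0.14), Pparg 1420715_a_at by 0.18 (SE 0.30) and Rarg 1419415_a_at by -0.25 (SE 0.18). All of these overlapped between classes. Pparg had the widest range of these between mice, from 4.80 to 7.50, and its highest mouse was resistant mouse 32. Agreement between probesets was close for Vdr (r = 0.858, and 0.866 over pair differences), moderate for Rarg (0.718 and 0.316) and poor for Rxra within mice (0.527 and 0.042).

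**Figure D2:**
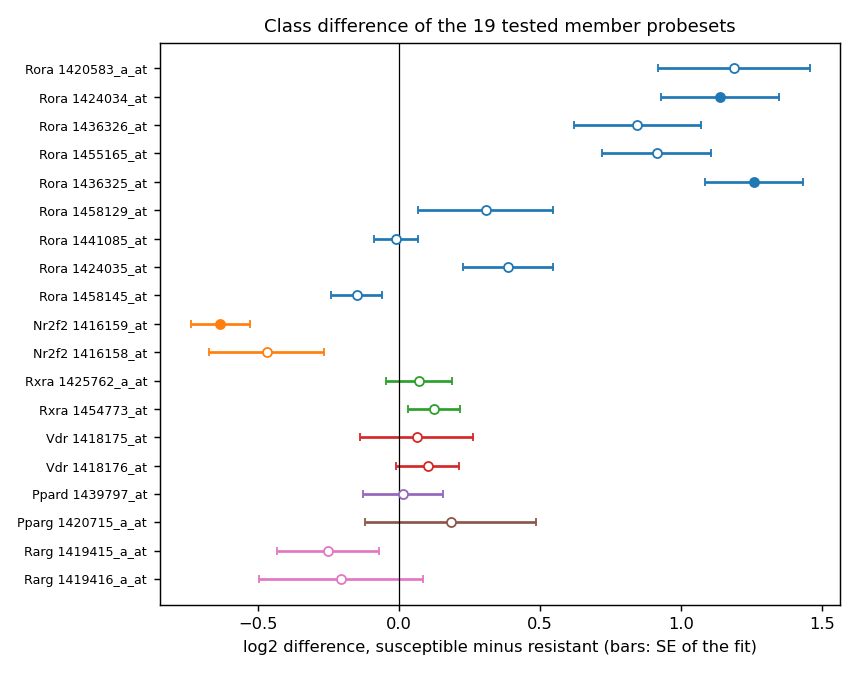
Log2 difference, susceptible minus resistant, for the 19 tested member probesets, with the SE of the limma fit as bars; filled points mark ranges over mice that do not overlap. The Rora probesets spread from -0.15 to 1.26, both Nr2f2 probesets lie below 0, and the other members stay between -0.25 and 0.18.

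Since the class values were known when the members were chosen, the class differences are a description and carry no p-value. Of all tested probesets, 11 (0.051%) passed limma with Benjamini-Hochberg adjustment between the classes, among them Rora 1436325_at and Nr2f2 1416159_at. Ranges over mice lay apart for 17 (0.0788%), among them 2 Rora probesets and 1 of Nr2f2. Nothing is read from these shares. With mouse 32 represented by its papilloma 2 alone, Rora 1424034_at differed by 0.94 (SE 0.17), 1436325_at by 0.99 (SE 0.15) and Nr2f2 1416159_at by -0.59 (SE 0.11), and Rora 1436325_at alone among members still passed, one of 4 probesets. Within the 3 start cohorts that held both classes, Rora 1424034_at was higher in susceptible mice by 1.18, 0.85 and 1.37, and Nr2f2 1416159_at differed by -0.58, -0.66 and -0.19, with only 2 to 4 mice of the 2 classes in each.

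The cornified list moved with the classes as Rora did. Its mean level was 9.76 ± 0.84 (SD, range 8.11 to 10.33) in resistant mice, 10.92 ± 0.68 (8.75 to 11.81) in intermediate mice and 11.03 ± 0.40 (10.43 to 11.72) in susceptible mice, and all 15 tested genes were higher in susceptible mice (median difference 1.32, against 0.01 over all tested probesets). With mouse 32 represented by its papilloma 2 alone, the resistant level was 10.16 ± 0.28 (range 9.80 to 10.52), which overlaps the susceptible range, and all 15 genes were still higher in susceptible mice, with a median difference of 0.83. With the standardized list level as a covariate, an alternative chosen after seeing the data, the class difference of Rora 1424034_at was 0.36 (SE 0.20), that of Rora 1436325_at 0.63 (SE 0.17) and that of Nr2f2 1416159_at -0.61 (SE 0.16), and no probeset passed. That of Pparg went from 0.18 to 0.99 (SE 0.39). Other marker lists moved too: all 10 basal genes (median -0.28) and 14 of 15 hair genes (median -0.43) were lower in susceptible mice, and all 5 tested adipocyte genes (median 0.83) and 7 of 8 sebocyte genes (median 0.56) were higher. Their part in the class differences was not tested.

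Rora went with the cornified list in mice that the class comparison did not use. This relation was examined after seeing the data. Among the 19 intermediate mice, Rora 1424034_at correlated with the list level at r = 0.837 (permutation p = 1e-05, the smallest that 100000 permutations give) and rho = 0.882 (permutation p = 1e-05). The slope was 0.48 (SE 0.07) per SD of the list with adjusted p = 0.000481 by limma over all tested probesets. The 7 Rora probesets that moved together all rose with the list, against 2.9% of all tested probesets that rose and 4.4% that passed in either direction, and the other 2 did not pass. Without intermediate mice 3 and 22, the farthest on the list, r was 0.809. In 25 of 31 pairs the papilloma with more of the cornified list had more Rora, and in 6 it had less (r = 0.840 over 31 pair differences, 0.882 over 30 without mouse 32).

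**Figure D3:**
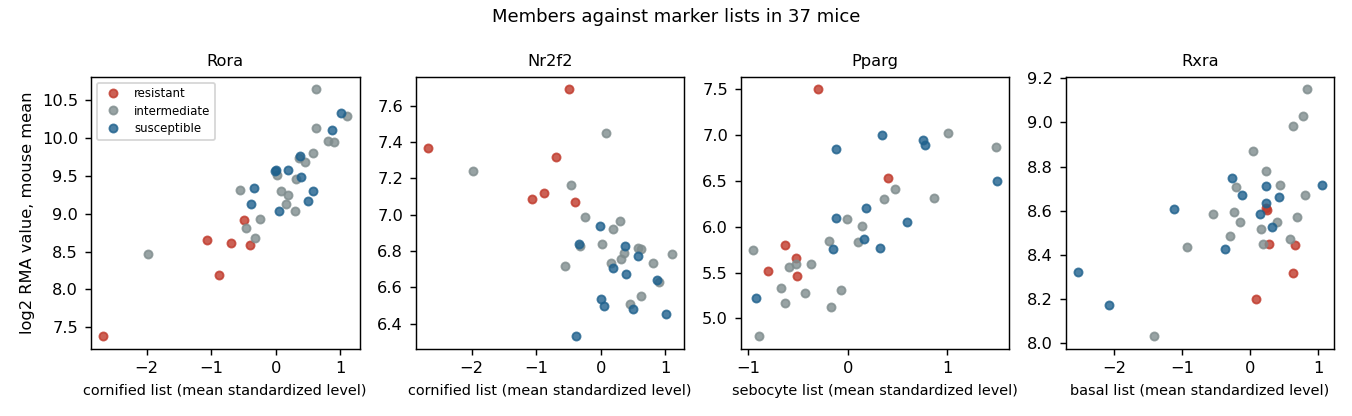
Log2 RMA value of the main probeset (vertical axis) against the mean standardized level of a marker list (horizontal axis) for Rora and Nr2f2 with the cornified list, Pparg with the sebocyte list and Rxra with the basal list; each point is 1 of 37 mice, coloured by class. Pooled over 37 mice, Rora rises with the cornified list (r = 0.877), Nr2f2 falls (r = -0.597) and Pparg rises with the sebocyte list (r = 0.688). Resistant mouse 32 is lowest on the cornified list and in Rora, and high in Pparg at a middling sebocyte level.

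Nr2f2 1416159_at had r = -0.597 with the cornified list over 37 mice and Rora r = 0.877, in a comparison that holds the classes and in which 10.1% of all tested probesets passed. Among the 19 intermediate mice it had r = -0.569 (permutation p = 0.0141) and rho = -0.598 (permutation p = 0.00816), but it did not pass over all tested probesets (adjusted p = 0.118), and r without mice 3 and 22 was -0.332. Rora and Nr2f2 were inversely related, with r = -0.595 over 37 mice, -0.606 over the 19 intermediate mice and -0.531 over 31 pair differences. In papilloma 1 of mouse 32 Rora was at 6.18 and Nr2f2 at 7.60, and without it r over 37 mice was -0.559.

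The genes whose pattern over 37 mice was most like Rora 1424034_at were Dsg1a (r = 0.903), a cadherin of desmosomes in the upper epidermis, Acer1 (0.885), a ceramidase, Sbsn (0.866), suprabasin, Flg (0.861), filaggrin, and Dsc1 (0.851), a second desmosomal cadherin. For these 5, r was 0.855 to 0.922 in the 19 intermediate mice and 0.659 to 0.845 over pair differences. Those values come from the same papillomas that picked the genes, so they are no separate support. The genes most like Nr2f2 1416159_at were G3bp2 (r = 0.789), which encodes a stress granule protein, Sptbn1 (0.739), a spectrin, Bcl2l11 (0.732), the cell death protein Bim, Sox4 (0.728), a transcription factor, and Celf1 (0.724), an RNA-binding protein. For these, r was 0.514 to 0.852 in the 19 intermediate mice and 0.519 to 0.581 over pair differences. Likeness is a description and gives no p-value, since the genes were picked by it and the classes are part of it.

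Of the members with known ligands, Pparg moved with the lists of sebocyte and adipocyte genes. It rose with the sebocyte list over 37 mice (r = 0.688, slope 0.44, SE 0.08 per SD, adjusted p = 0.000391 by limma, against 0.793% of all tested probesets) and with the adipocyte list (r = 0.651, slope 0.42, SE 0.08, adjusted p = 0.000332, against 26.5%). Among the 19 intermediate mice the sebocyte relation was r = 0.866 (permutation p = 1e-05) and rho = 0.814 (permutation p = 3e-05), with r = 0.771 without mice 24 and 19, and adjusted p = 0.000284 by limma, against 0.904%. The adipocyte relation did not pass there (r = 0.502, adjusted p = 0.185 by limma). In these mice r was higher with the hair (0.614), fibroblast (0.575) and mitosis (0.526) lists, none of which passed either. Over pair differences Pparg followed the sebocyte list at r = 0.700 and the adipocyte list at 0.433.

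Rxra, Vdr, Ppard and Rarg rose with the list of basal keratinocyte genes over 37 mice, where 11.9% of all tested probesets passed. The r was 0.547 for Rxra (adjusted p = 0.0119 by limma), 0.439 for Vdr (0.0486), 0.610 for Ppard (0.00309) and 0.685 for Rarg (0.000554). The rho was lower, from 0.335 to 0.408. Without the 2 mice farthest on the list, r was 0.455, 0.398, 0.403 and 0.229 in the same order, so the Rarg relation over 37 mice rests on those mice. Among the 19 intermediate mice alone none of the 4 passed, where 0.0186% of probesets did, but r was 0.714 for Rxra, 0.527 for Vdr, 0.640 for Ppard and 0.509 for Rarg, with slopes per SD of 0.18, 0.21, 0.22 and 0.09 against 0.12, 0.14, 0.19 and 0.21 over 37 mice. Rarg and Ppard also fell with the macrophage, adipocyte and muscle lists, Ppard with the fibroblast list, Rarg with the T-cell and endothelial lists, and Rxra with the adipocyte list, at r from -0.605 to -0.404. The strongest of these, Rarg with the T-cell list, had rho = -0.302 and r = -0.387 without the 2 mice farthest on that list. Among the 19 intermediate mice its r was -0.071. Pparg rose with the muscle list (r = 0.421). These are lists with which many probesets moved: 24.5% passed for fibroblast, 31.2% for endothelial, 29.2% for macrophage, 19.9% for T cell and 28.5% for muscle. In all, 19 of 77 pairs of a member's main probeset and a list passed over 37 mice and 3 among the 19 intermediate mice, namely Rora with cornified, Pparg with sebocyte and Rarg with macrophage. The last had r = -0.648 (permutation p = 0.00307) and rho = -0.618 (permutation p = 0.0057), adjusted p = 0.0381 by limma against 14.5% of all tested probesets. For marker lists, permutations were run only for these 3 pairs and for Nr2f2 with cornified. They used the same 19 mice as the limma fits, so they are no separate support. In these mice the other tested Rarg probeset, 1419416_a_at, had r = -0.159 with the macrophage list (adjusted p = 0.697 by limma). With the basal list it had r = -0.045. Among probesets that are not main probesets, Rora 1436326_at, 1455165_at and 1458129_at fell with the macrophage list (r from -0.641 to -0.615). Nr2f2 1416158_at rose with it (r = 0.746), and each of these had adjusted p under 0.05 by limma. Rora 1424034_at had r = -0.557 (adjusted p = 0.0523).

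Over all 37 mice, Rora 1424034_at rose with papilloma number (r = 0.422 against log2 of the number plus 1) and Nr2f2 1416159_at fell (r = -0.630), which repeats the classes and is given without a p. Within the classes the relations changed. Rora had r = -0.052 in susceptible and -0.465 in intermediate mice, and Nr2f2 had -0.424 and 0.290.

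**Figure D4:**
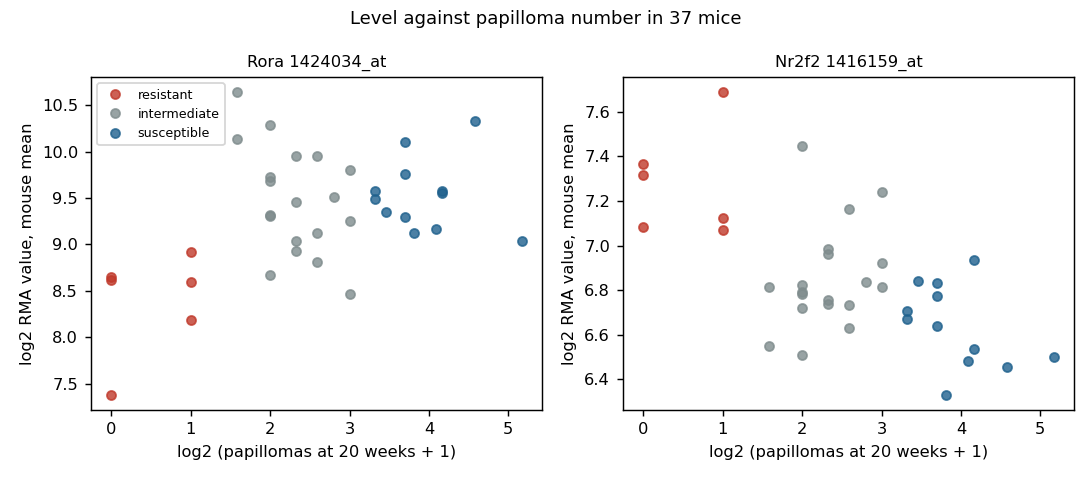
Log2 RMA value (vertical axis) of Rora 1424034_at and Nr2f2 1416159_at against log2 of the papilloma number at 20 weeks plus 1 (horizontal axis), 1 point per mouse, coloured by class. The resistant mice at the left hold the low Rora and high Nr2f2 values, and the intermediate mice with 2 papillomas have Rora at 10.64 and 10.13.

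The 19 intermediate mice give the test of number that is independent of the class comparison. None of 21561 probesets passed by limma with adjustment (0%), and 5.62% had an unadjusted p under 0.05. Of the 9 Rora probesets, 7 had a negative slope, opposite to the class direction, and 4 had an unadjusted p under 0.05, beside 3.36% of all tested probesets with a negative and 2.25% with a positive slope at that level. Rora 1424034_at had a slope of -0.61 (SE 0.26) per unit of log2 number (permutation p = 0.0448 for r and 0.0803 for rho, adjusted p = 0.868 by limma), and 1458129_at one of -0.58 (SE 0.21). Without mice 15 and 19, which had 2 papillomas each and Rora at 10.64 and 10.13, r was -0.212, so the relation rests on those mice. The intermediate mice with 3 papillomas averaged 9.50 (n = 6) and those with 7 averaged 9.17 (n = 3). Nr2f2 1416159_at had a slope of 0.15 (SE 0.12, adjusted p = 0.908), Vdr 1418176_at 0.35 (SE 0.19, adjusted p = 0.875), and Pparg 1420715_a_at 0.14 (SE 0.30).

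Likeness of papillomas of 1 mouse was near the background for the members. The intraclass correlation, the share of variance that lies between mice, was estimated from 31 pairs and tested with an F test. It passed adjustment over all tested probesets for 15 of 19 member probesets, beside 71% of all tested probesets, and the median was 0.385 for members and 0.435 for all. With class means removed, cohort means removed or mice of doubtful sex label left out, 8 of 19 passed in each case. With cohort means removed 10013 of all 21561 tested probesets passed. Over all 6 alternatives, 1 of them without the filter, 10013 to 16789 probesets passed, beside 15308 in the main test. Nothing is read about the members from these counts. Rxra 1425762_a_at had the highest value, 0.583, followed by Ppard 1439797_at (0.568), Rora 1420583_a_at (0.540) and Pparg 1420715_a_at (0.527). Rora 1424034_at had 0.385 (adjusted p = 0.0233) and Nr2f2 1416159_at 0.321 (adjusted p = 0.0494). With class means removed these were 0.113 (adjusted p = 0.296) and 0.006 (adjusted p = 0.507), and Ppard kept 0.485 or more under every alternative run. Rora and Nr2f2 were chosen with their class differences known, and a class difference adds variance between mice. Their values, the p beside them and the fall are therefore descriptions. The F test made no allowance for the class means removed. Rora 1436326_at and 1441085_at, Nr2f2 1416158_at and Rarg 1419415_a_at did not pass.

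Gaps between the 2 papillomas of a mouse were widest in resistant mice at the main Rora probeset. The median gap between the 2 papillomas at 1424034_at was 1.31 in 5 resistant pairs, 0.42 in susceptible pairs and 0.50 in intermediate pairs, and it was 0.90 in the 4 resistant pairs without mouse 32. The resistant median was the largest at 6 of the 7 Rora probesets that moved together, and at 1424035_at it was 0.177 against 0.311 in susceptible pairs. The 5 resistant pairs had 8.70 and 8.48 (mouse 7), 8.87 and 8.37 (mouse 10), 6.18 and 8.58 (mouse 32), 7.53 and 8.84 (mouse 34), and 7.91 and 9.91 (mouse 37). In all 5 the papilloma with less Rora also had the lower cornified level, which was 5.70 against 10.52 in mouse 32 and 9.66 against 10.99 in mouse 37. The Actb ratio also differed in these mice, at -0.24 and 0.59 in mouse 32 and -0.27 and 1.71 in mouse 37, and the part of RNA quality in the gaps was not tested. Nr2f2 gaps were smaller, with medians of 0.41, 0.21 and 0.27 in the 3 classes, and the widest was in intermediate mouse 14 (6.82 and 8.07).

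**Figure D5:**
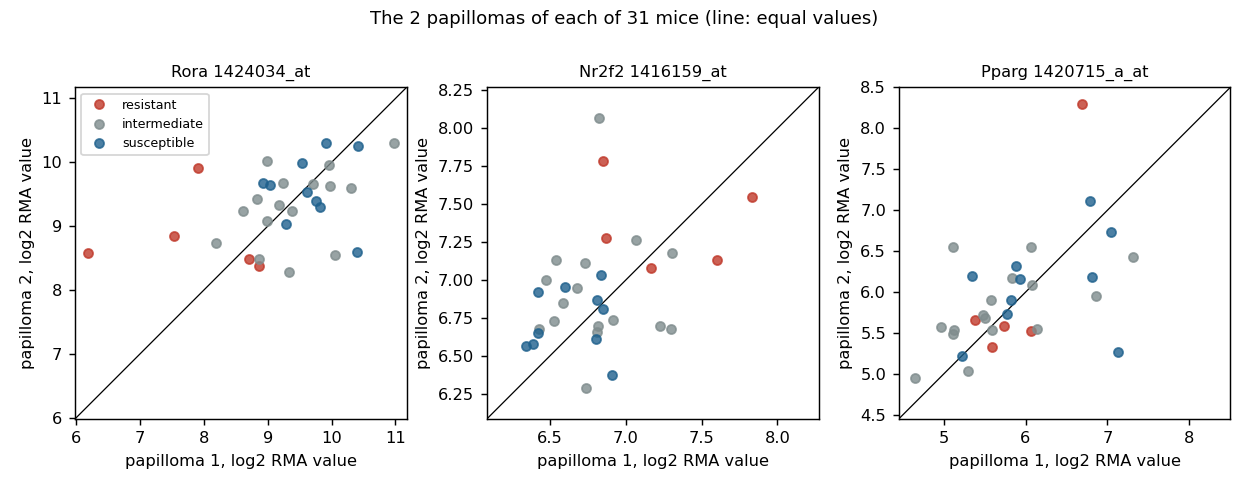
Log2 RMA value of papilloma 1 (horizontal axis) against papilloma 2 (vertical axis) of 31 mice for Rora, Nr2f2 and Pparg, coloured by class; the line marks equal values. For Rora, 3 of 5 resistant pairs lie far above the line. The median gap was 1.31 for Rora and 0.283 for Pparg in resistant pairs, and 0.494 and 0.316 over all 31 pairs. For Pparg, resistant mouse 32 also lies far above the line, at 6.69 and 8.30.

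Coat colour separates mice by alleles near Tyr on chromosome 7, which also carries Nr2f2. By limma with sex as covariate, 16 of 21561 probesets (0.0742%) differed between 17 agouti and 20 white mice, none of them a member, and 4 member probesets (3 of Rora and Ppard) had an unadjusted p under 0.05, beside 7.88% of all tested probesets. Nr2f2 1416159_at was 6.93 ± 0.33 (SD) in agouti and 6.79 ± 0.26 in white mice, a difference of 0.15 (SE 0.10, adjusted p = 0.723), and within the susceptible and intermediate classes the differences were 0.01 and 0.00. The resistant class held 5 agouti mice of 6, against 4 of 12 susceptible mice. Ppard 1439797_at was 7.98 ± 0.32 in agouti and 8.26 ± 0.27 in white mice, a difference of -0.29 (SE 0.09, adjusted p = 0.358), with -0.20 and -0.36 within the susceptible and intermediate classes. Rora 1424034_at differed by -0.43 (SE 0.20, adjusted p = 0.619), by -0.48 in susceptible mice and by 0.06 in intermediate mice.

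Other genes of the receptor pathways showed no class call. Of 16 tested receptors outside the members 8 were higher and 8 lower in susceptible mice, with a median of 0.01, the same as over all probesets. Coregulators divided evenly too, with 7 of 14 higher (median -0.01). Of 9 clock and metabolic genes with ROR response elements, 5 were higher (median 0.03), and Bmal1, the clock activator that Rora drives, differed by -0.09 (SE 0.17) with r = -0.193 to Rora over 37 mice. Nfil3, a repressor linked to the clock, had the list's smallest p in intermediate mice, with a slope of 0.94 (SE 0.25, adjusted p = 0.868), and had r = -0.577 to Rora.

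Retinoid genes spread more widely, with 11 of 17 tested higher in susceptible mice (median 0.12). Lrat, which esterifies retinol, was higher by 0.99 (SE 0.27) and Rdh12, a retinol dehydrogenase, by 0.92 (SE 0.25), and Rdh12 followed Rora at r = 0.796. Stra6, the retinol uptake receptor, was -0.87 (SE 0.38). In intermediate mice 4 of the 17 had an unadjusted p under 0.05, all with positive slopes, and none passed adjustment. They include Stra6 (0.97, SE 0.39) and Tgm2, a retinoid-induced transglutaminase (1.01, SE 0.42). Of 7 vitamin D genes 4 were higher (median 0.07), Cd14 among the rest at -0.86 (SE 0.36), and Cyp24a1, the classic Vdr target, was not above the array median in any papilloma. Of 13 lipid genes known as PPAR targets 8 were higher (median 0.05), and Plin2, a lipid droplet protein, was -0.47 (SE 0.23).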

How the data were processed

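Gene expression was measured in 68 papillomas with Affymetrix arrays. The authors deposited log2 values, normalised by RMA according to the submitters' processing notes (version not given in the sources used here). Symbols came from the platform annotation: of 45101 probesets 34945 had 1 symbol, 932 several and 9160 none. A probeset that names Ppard and another gene was not used. The tests ran on 21561 single-symbol probesets that exceeded the median of at least 11 arrays, using mouse means, with limma 3.58.1 in R 4.3.3 and Benjamini-Hochberg adjustment at 0.05. Classes followed the papilloma number at 20 weeks (above 7 susceptible, under 2 resistant). Same-mouse pairs were tested by a one-way F test, and r by 100000 permutations. The main probeset of a gene exceeded the median in the most arrays, then had the highest mean. Named genes were the members, the 5 genes most like Rora and the 5 most like Nr2f2, and from each list up to 3 genes by class difference and up to 3 by p in intermediate mice. Bmal1 and Cyp24a1 were added after their values were seen, as known targets. Members and lists were chosen with earlier results of these data known. Marker scores were mean standardized levels. Fits were checked on simulated data. Filter, first papilloma, control ratios, sex labels, cohort, centring, covariates, counts at 24 weeks and single mice were varied. No file gives a depth for arrays, whose number limits precision. RefSeq promoters came from GRCm38.p6. Figures used matplotlib.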

Additional observations from a re-analysis of the deposited data

Results flagged for a closer look

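For Rora 1436326_at 1 resistant mouse lay far from the other 5. Mouse 37 had 8.85, the nearest of the others 7.56 and the lowest 7.07, so the gap was 0.724 of the group's range. The limit for such a gap, which is smaller than this one, is passed by chance in about 1 in 20 groups, and 19 member probesets were examined.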

How the results depend on the processing

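No paired analysis was possible because the classes hold different mice and the replicate numbers only name papillomas. Between the classes, 11 probesets and 2 member probesets passed. No probeset passed with the first papilloma of each mouse (0), control ratios as covariates (0), classes by the count at 24 weeks (0) or the cornified list as covariate (0), nor did any member (0 in each). With start cohort as a block 1 probeset and 0 members passed, with arrays as samples 366 and 5, with the mouse as random block 2 and 0, with centred arrays 28 probesets, when mice of doubtful sex label were left out 28, and without papilloma 1 of mouse 32 4 and 1. The cornified covariate, that omission and the fits in intermediate mice alone were chosen after seeing the data. Leaving out 1 mouse gave 4 to 89 probesets (4 without resistant mouse 34, 89 without susceptible mouse 29) and 1 to 5 members (1 without mouse 1, 32 or 34, 5 without mouse 37). The difference of Rora 1424034_at ran from 0.36 to 1.60 and that of Nr2f2 1416159_at from -0.66 to -0.52 over the alternatives, and the cause of the lost calls was not tested. For number in intermediate mice the count at 24 weeks gave 1 probeset. No member passed under any alternative there. Slopes near 0 turned sign: Rarg 1419415_a_at with the first papilloma (-0.011), control ratios (-0.099) and cohort (-0.049), Ppard with control ratios (-0.16), cohort (-0.092) and coat (-0.036), Rxra 1454773_at without mice of doubtful sex label (0.12), with centring (0.0047), sex (0.016) and the raw count (0.0097), and Pparg without mice of doubtful sex label (-0.12). Leaving out 1 mouse moved the slope of Rxra from -0.087 to 0.13, of Ppard from -0.072 to 0.21, of Pparg from -0.092 to 0.49 and of Rarg from -0.048 to 0.075. By coat, 4 probesets passed with class as covariate and 13 to 32 with 1 mouse left out (32 without mouse 3), and none was a member. Rarg turned to 0.059 with the first papilloma and Pparg to -0.15 without mice of doubtful sex label, and leaving out 1 mouse gave -0.023 to 0.14 for Pparg and -0.078 to 0.034 for Rarg. For same-mouse pairs, 8 members passed without mice of doubtful sex label, 8 with class means removed and 8 with cohort means removed, where 10013 probesets passed in all, and 10 to 16 with 1 mouse left out. Of all probesets, 10013 to 16789 passed over these and the other alternatives, and 14064 to 16117 with 1 mouse left out. Of the relations with marker lists, 15 to 20 passed under alternatives that kept all 37 mice or left out those of doubtful sex label, 17 without papilloma 1 of mouse 32 and 3 in the intermediate mice alone.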
